A study of Mus musculus with 12 samples.

Results

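The genes described here are ATF4 and the targets and regulators of the integrated stress response, followed in inguinal white adipose tissue of mice. The set holds 32 of the 24344 genes in the deposited expression table, chosen by symbol: 7 transcription factors, 9 feedback and stress effectors, 5 enzymes of amino acid synthesis, 7 amino acid transporters, and eIF2 alpha with 3 of its kinases (HRI, PKR and GCN2). The fourth kinase, PERK, was read with the wider pathway. Messenger RNA was measured by RNA sequencing in 12 mice, 3 in each of 4 groups: AKO_8C, WT_8C, AKO_30C and WT_30C.

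All mice were C57BL/6J with a labelled age of 10 weeks. They had lived at room temperature for 4 weeks and at 30 °C, a thermoneutral temperature for mice, for 6 weeks. The 8 °C groups then spent 3 days at 8 °C, and the 30 °C groups stayed at 30 °C for those 3 days. The genotype of the AKO groups is labelled IRE1(alpha)-/-, that of the other groups WT, and the series title names the lines Ern1f/f AKO and Ern1f/f. Whether the WT mice carry the floxed allele is not stated. Ern1 encodes IRE1 alpha, a sensor of unfolded proteins in the endoplasmic reticulum. The Cre driver, the sex of the mice and the deleted exons are not given in the sources used here. Whole tissue was extracted, so every cell type of the depot contributed RNA, and fewer cells of a type cannot be told apart from less RNA per cell.

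In the integrated stress response, kinases that each sense a different stress phosphorylate the alpha subunit of the translation initiation factor eIF2. General protein synthesis then falls while the messenger of Atf4 is translated more, and ATF4 switches on genes for amino acid uptake and synthesis, glutathione metabolism and feedback. The response runs beside the IRE1 branch of the unfolded protein response, and in brown and beige fat it is known for the release of the hormones FGF21 and GDF15 under mitochondrial stress.

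Values are FPKM, fragments scaled to the length of the transcript and to the size of the library, so levels of different genes are compared per length. Log2 fold changes are differences between group means of log2(FPKM + 1), tested with limma, and a gene passed at a Benjamini-Hochberg adjusted p under 0.05 over the 13215 genes tested. Summed over all genes, a library held 594202 to 743185 FPKM, and 12432 to 12816 genes reached 1 FPKM in each. Read depth is unknown. Ern1 itself (chromosome 11, 106397620 to 106487796, GRCm38) had 6.83, 6.92 and 7.37 FPKM in the AKO_8C libraries, against 4.53, 5.16 and 5.2 FPKM in the WT_8C libraries, and 4.5, 4.24 and 3.45 FPKM in the AKO_30C libraries, against 2.53, 3.32 and 2.97 FPKM in the WT_30C libraries. Every library labelled AKO was higher in Ern1 than every WT library of the same temperature. At 8 °C the log2 fold change was 0.43 (adjusted p = 0.0756 in limma, SE 0.12), which did not pass. A gene-level value does not show whether single exons are missing, and the genotypes below are those of the labels.

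Of the 32 genes, 30 passed the filter of 1 FPKM in at least 3 libraries. Pycr1, the last enzyme of proline synthesis, lay between 0.116 and 0.441 FPKM, and Slc1a4, a transporter of neutral amino acids, between 0.445 and 1.08 FPKM. Neither was tested. Slc7a11 passed the filter through WT_30C and 1 AKO_30C library only, so it had to be higher there and its differences from WT_30C are given as values, with no test. It stays in the counts against WT_30C below, where its place is no result. Averaged over the 12 libraries, the levels spanned from 0.899 FPKM for Slc7a11 to 806 FPKM for Slc1a5, the glutamine transporter ASCT2. After Slc1a5 came Eif4ebp1 at 254, Atf5 at 240.0, Cebpb at 215 and Atf4 at 131 FPKM. Chac1, at 6.64 FPKM, and Trib3, at 9.76 FPKM, were among the lower ones.

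In the cold, AKO fat carried more messenger of ATF4 and of several of its targets than WT fat. Of the 30 genes tested, 7 were higher in AKO_8C than in WT_8C and 1 was lower, where 1.46% of all genes tested were called higher and 0.568% lower. The members were chosen with earlier results of these data known, so the excess over these shares is no independent evidence. The 7 were Atf4, Atf5, Ddit3, Trib3, Chac1, Vldlr and Slc38a2, and the lower one was Stc2. The median log2 fold change was 0.42 over the 30 genes and 0.03 over all genes tested. At 30 °C none of the 30 passed.

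Among the transcription factors, 3 of 7 rose in AKO_8C relative to WT_8C. Atf4 (chromosome 15, 80255184 to 80257545, GRCm38), the factor whose translation the response promotes, had 189.8, 216 and 189 FPKM in the AKO_8C libraries, against 105, 135 and 124 FPKM in the WT_8C libraries. Every AKO_8C library exceeded every WT_8C library, at 199 ± 15.5 FPKM in AKO_8C and 121 ± 15.5 FPKM in WT_8C (SD, n = 3 each). The log2 fold change was 0.71 (adjusted p = 0.0306, SE 0.14). At 30 °C Atf4 had 93.2, 99.3 and 90.1 FPKM in the AKO_30C libraries, against 98.4, 98.1 and 136 FPKM in the WT_30C libraries, and there the groups overlapped. Atf5, a related factor under similar translational control, had 437, 538 and 498 FPKM in the AKO_8C libraries, against 280.2, 302 and 342 FPKM in the WT_8C libraries. No library of AKO_8C reached down into WT_8C, and the log2 fold change was 0.67 (adjusted p = 0.0367, SE 0.14). In the warm its level was far lower in both genotypes, at 83.2, 64.9 and 89.9 FPKM in the AKO_30C libraries, against 85.6, 87 and 68.3 FPKM in the WT_30C libraries. Ddit3, which encodes the factor CHOP, had 59.1, 51.1 and 35.4 FPKM in the AKO_8C libraries, against 26.3, 28.6 and 33.5 FPKM in the WT_8C libraries. The groups did not overlap, although AKO_8C replicate 3 lay close to WT_8C replicate 3, and the log2 fold change was 0.68 (adjusted p = 0.0483, SE 0.16). Its values at 30 °C were 25.2, 27.7 and 26.9 FPKM in the AKO_30C libraries, against 32.3, 29.8 and 30.0 FPKM in the WT_30C libraries.

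Cebpg, a dimer partner of ATF4, had 33.1, 30.7 and 31.4 FPKM in the AKO_8C libraries, against 25.8, 19.9 and 25.3 FPKM in the WT_8C libraries. These groups did not overlap, but the log2 fold change of 0.41 (adjusted p = 0.146, SE 0.15) did not pass. It had 22.2, 16.9 and 22.6 FPKM in the AKO_30C libraries, against 18.3, 17.9 and 24.3 FPKM in the WT_30C libraries. Nupr1, a stress-induced nuclear cofactor, had 95.1, 91.1 and 108 FPKM in the AKO_8C libraries, against 129, 116 and 112 FPKM in the WT_8C libraries, and 112, 99.5 and 101 FPKM in the AKO_30C libraries, against 97.2, 109 and 73.3 FPKM in the WT_30C libraries. Its AKO_8C values were all below the WT_8C values, with a log2 fold change of -0.28 (adjusted p = 0.284, SE 0.13). Cebpb, the adipogenic factor C/EBP beta, had 272, 309 and 354 FPKM in the AKO_8C libraries, against 220.4, 303 and 188 FPKM in the WT_8C libraries, and 190.4, 263 and 90.1 FPKM in the AKO_30C libraries, against 143, 140.4 and 109 FPKM in the WT_30C libraries. Both pairs of groups overlapped. Atf3, a stress-induced factor of the same family, had 16, 29.2 and 11 FPKM in the AKO_8C libraries, against 2.01, 43.4 and 2.91 FPKM in the WT_8C libraries. A single library, WT_8C replicate 2, was higher than the 2 others of its group and than every AKO_8C library, and the log2 fold change was 1.18 (adjusted p = 0.422, SE 0.76). Without that library it was 2.42 (adjusted p = 0.00512). Atf3 passed in that 1 of the 12 left-out fits only, with an adjusted p in limma of up to 0.769 in the others. At 30 °C Atf3 had 3.61, 4.83 and 2.97 FPKM in the AKO_30C libraries, against 1.79, 1.71 and 1.93 FPKM in the WT_30C libraries.

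Leaving out 1 library at a time showed how close these calls lie to the threshold. Atf4 passed in 7 of 12 such fits, Atf5 in 6 and Ddit3 in 1. Atf4 and Atf5 were lost without AKO_8C replicate 2 or 3, WT_8C replicate 1 or 3, or WT_30C replicate 1, and Atf5 also without WT_8C replicate 2. The highest adjusted p in limma was 0.123 for Atf4 and 0.151 for Atf5. Ddit3 passed only without AKO_8C replicate 3, at an adjusted p of 0.0228, and reached at most 0.111 without one of the others. It was also called in 2 of the 11 alternatives of other kinds, a filter at 5 FPKM and a robust variance estimate, against 9 for Atf4 and 8 for Atf5. The log2 fold change stayed between 0.61 and 0.79 for Atf4, between 0.60 and 0.75 for Atf5 and between 0.52 and 0.88 for Ddit3.

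**Figure D1:**
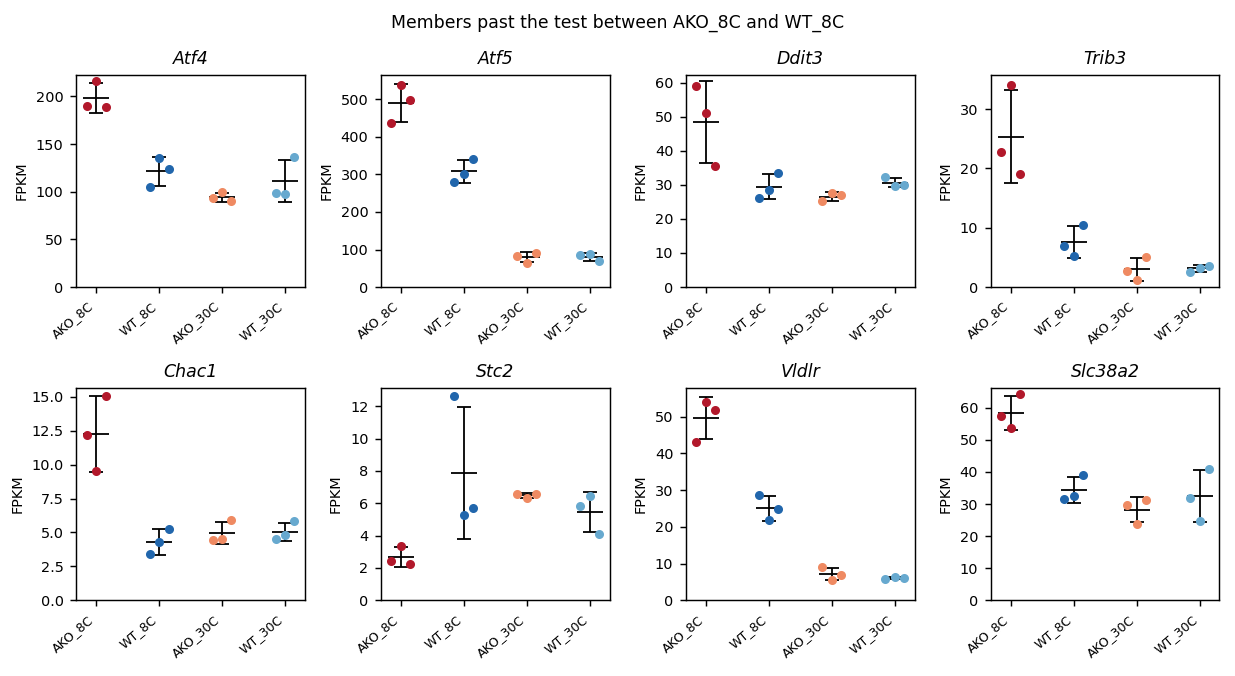
FPKM in each of the 12 libraries, by group, of the 8 genes that passed between AKO_8C and WT_8C; points are mice, and the bars give the mean ± SD of 3. Stc2 lies lower in all AKO_8C libraries, and Atf4, Atf5, Ddit3, Trib3, Chac1, Vldlr and Slc38a2 lie higher, than in all WT_8C libraries.

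The feedback and stress effectors held the largest differences, with 3 of 9 higher and 1 lower in AKO_8C. Chac1, which degrades glutathione, had 12.2, 9.53 and 15.1 FPKM in the AKO_8C libraries, against 3.38, 4.27 and 5.27 FPKM in the WT_8C libraries. The lowest AKO_8C value was above the highest WT_8C value, the means were 12.3 ± 2.77 FPKM in AKO_8C and 4.31 ± 0.941 FPKM in WT_8C (SD, n = 3 each), and the log2 fold change was 1.31 (adjusted p = 0.00656, SE 0.18). It had 4.48, 4.53 and 5.92 FPKM in the AKO_30C libraries, against 4.53, 4.77 and 5.82 FPKM in the WT_30C libraries, where the genotypes overlapped. Chac1 passed in each of the 12 fits that left out 1 library, with an adjusted p of at most 0.0336. Trib3, a pseudokinase that restrains ATF4 and CHOP, had 22.9, 34.2 and 19.1 FPKM in the AKO_8C libraries, against 6.94, 5.29 and 10.5 FPKM in the WT_8C libraries. All 3 AKO_8C values were above the WT_8C values, at 25.4 ± 7.84 FPKM in AKO_8C and 7.58 ± 2.66 FPKM in WT_8C (SD, n = 3 each). The log2 fold change was 1.63 (adjusted p = 0.034, SE 0.34). It passed in 5 of the 12 left-out fits and was lost without any 1 of the 6 cold libraries or WT_30C replicate 1, with an adjusted p of at most 0.123. Trib3 had 2.76, 1.14 and 5.01 FPKM in the AKO_30C libraries, against 2.51, 3.28 and 3.62 FPKM in the WT_30C libraries.

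Vldlr, a receptor for triglyceride-rich lipoproteins, had 43.2, 54 and 51.7 FPKM in the AKO_8C libraries, against 28.6, 21.8 and 25 FPKM in the WT_8C libraries. The groups were well apart, with a log2 fold change of 0.96 (adjusted p = 0.0156, SE 0.15), and it passed in 10 of the 12 fits with a library left out. The exceptions were the fits without AKO_8C replicate 3 and without WT_8C replicate 3, where the adjusted p was at most 0.0879. At 30 °C Vldlr had 8.95, 5.61 and 6.89 FPKM in the AKO_30C libraries, against 5.71, 6.23 and 5.99 FPKM in the WT_30C libraries. Stc2, a secreted glycoprotein, went the other way, with 2.41, 3.38 and 2.26 FPKM in the AKO_8C libraries, against 12.6, 5.3 and 5.71 FPKM in the WT_8C libraries. The 3 AKO_8C values were the lowest of the 6, and the log2 fold change was -1.19 (adjusted p = 0.0374, SE 0.25). WT_8C replicate 1 was the highest library, and without it the log2 fold change was -0.83 (adjusted p = 0.0621). Stc2 passed in 6 of the 12 left-out fits and was also lost without WT_8C replicate 3, WT_30C replicate 1 or any AKO_8C library. That WT_8C library also stood apart in epithelial genes: the 6 epithelial markers summed to 58.7 FPKM in it and to between 1.99 and 6.13 FPKM in the other 11, and their part in the result was not tested. At 30 °C Stc2 had 6.55, 6.32 and 6.6 FPKM in the AKO_30C libraries, against 5.82, 6.44 and 4.08 FPKM in the WT_30C libraries.

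The other effectors did not pass at 8 °C. Ppp1r15a, the inducible subunit that directs a phosphatase to eIF2 alpha, had 22.6, 24.6 and 24.4 FPKM in the AKO_8C libraries, against 11.3, 20.8 and 12.8 FPKM in the WT_8C libraries. Its groups did not overlap, and the log2 fold change was 0.68 (adjusted p = 0.0717, SE 0.18), or 0.93 (adjusted p = 0.00734) without WT_8C replicate 2. Ppp1r15a passed in that 1 of the 12 left-out fits only, with an adjusted p in limma of up to 0.220 in the others. It had 10.7, 12.3 and 9.9 FPKM in the AKO_30C libraries, against 12.9, 15.3 and 11.9 FPKM in the WT_30C libraries. Ppp1r15b, the constitutive subunit for the same phosphatase, had 56.6, 59.9 and 55.1 FPKM in the AKO_8C libraries, against 41.7, 42.8 and 43 FPKM in the WT_8C libraries. Here too the groups were apart, with a log2 fold change of 0.42 (adjusted p = 0.0541, SE 0.10), which passed without AKO_30C replicate 3 or WT_30C replicate 2 (lowest adjusted p in limma 0.0452). Ppp1r15b did not pass in the other left-out fits, where the adjusted p in limma reached 0.161. Its warm values were 34.2, 33.7 and 28.4 FPKM in the AKO_30C libraries, against 33.9, 28.9 and 36.1 FPKM in the WT_30C libraries.

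Sesn2, a leucine sensor that restrains mTORC1, had 13.4, 21.5 and 26.1 FPKM in the AKO_8C libraries, against 12.8, 11.3 and 10.4 FPKM in the WT_8C libraries. The groups were close but did not overlap, and the log2 fold change was 0.73 (adjusted p = 0.0793, SE 0.20), or 0.99 (adjusted p = 0.0217) without AKO_8C replicate 1. It passed in that 1 of the 12 left-out fits only, with an adjusted p in limma of up to 0.278 in the others. Sesn2 had 6.21, 7.95 and 5.56 FPKM in the AKO_30C libraries, against 6.17, 7.55 and 6.39 FPKM in the WT_30C libraries. Ddit4, another brake on mTORC1, ranged from 33.6 to 143 FPKM, both extremes in the cold, and passed in no comparison. Eif4ebp1, which holds back the cap-binding factor eIF4E, ranged from 201 to 307 FPKM and passed in none.

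Promoter sequence is shown for 4 members that were higher in the cold in AKO fat, because ATF4 binds a short composite element that it shares with C/EBP factors. Windows run from 250 bases before to 50 bases after the annotated start and come from RefSeq (GRCm38.p6), which matched 27 of the 32 genes; Ppp1r15b, Eif4ebp1, Cth, Slc7a5 and Slc1a5 were not in the table. The letters searched were TGATGNAA on either strand, that is also TTNCATCA. They occur in 3.91% of the 32544 promoter windows and in a window of 9 of the 27 genes: Atf3, Chac1, Trib3, Slc7a11, Asns, Nupr1, Slc1a4, Pycr1 and Vldlr. A match describes the letters and is not a binding site. In the lines below, 5′ to 3′ on the strand of the gene, capitals mark the match. The windows are chr2:119350992-119351291 (plus strand) for Chac1, chr2:152344011-152344310 (minus) for Trib3, chr19:27216770-27217069 (plus) for Vldlr, the one of its 2 windows with a match, and chr6:7693160-7693459 (minus) for Asns. Slc7a11, chr3:50443564-50443863 (minus), is shown beside them because it has 2 matches. Its window belongs to a start inside the annotated gene. Slc7a11 had passed the filter through warm libraries only, so its lack of a rise in the cold is no result.
Chac1: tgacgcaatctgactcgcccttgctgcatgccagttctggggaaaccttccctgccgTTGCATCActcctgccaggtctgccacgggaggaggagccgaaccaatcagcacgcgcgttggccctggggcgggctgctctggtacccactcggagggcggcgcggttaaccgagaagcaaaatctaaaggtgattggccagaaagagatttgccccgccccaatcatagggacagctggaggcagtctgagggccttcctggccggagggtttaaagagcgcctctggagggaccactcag
Trib3: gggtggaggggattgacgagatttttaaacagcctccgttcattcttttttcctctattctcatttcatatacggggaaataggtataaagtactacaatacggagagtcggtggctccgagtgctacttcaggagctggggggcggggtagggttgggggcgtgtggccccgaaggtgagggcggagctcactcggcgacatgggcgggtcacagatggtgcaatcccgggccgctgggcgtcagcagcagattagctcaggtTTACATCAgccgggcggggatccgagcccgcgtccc
Vldlr: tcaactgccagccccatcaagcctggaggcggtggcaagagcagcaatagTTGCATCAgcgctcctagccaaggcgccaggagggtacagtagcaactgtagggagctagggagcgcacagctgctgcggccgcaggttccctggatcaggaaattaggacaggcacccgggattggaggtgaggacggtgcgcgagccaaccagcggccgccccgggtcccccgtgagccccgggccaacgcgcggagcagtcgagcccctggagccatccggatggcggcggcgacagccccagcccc
Asns: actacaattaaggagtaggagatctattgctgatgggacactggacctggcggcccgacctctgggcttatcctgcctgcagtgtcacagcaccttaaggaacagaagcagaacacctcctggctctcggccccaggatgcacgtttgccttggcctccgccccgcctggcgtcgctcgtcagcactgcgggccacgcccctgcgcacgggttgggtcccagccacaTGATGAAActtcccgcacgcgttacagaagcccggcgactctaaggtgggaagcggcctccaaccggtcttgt
Slc7a11: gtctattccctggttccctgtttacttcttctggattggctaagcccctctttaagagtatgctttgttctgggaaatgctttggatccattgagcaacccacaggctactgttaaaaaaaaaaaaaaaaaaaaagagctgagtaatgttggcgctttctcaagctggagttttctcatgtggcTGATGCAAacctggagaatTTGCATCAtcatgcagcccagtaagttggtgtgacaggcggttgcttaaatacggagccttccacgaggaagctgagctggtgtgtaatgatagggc
Counted from the start, the first base of the match is at -193 in Chac1, -200 in Vldlr, -23 in Asns and 15 in Trib3, and the matches of Slc7a11 begin at -66 and -47. Chac1, Trib3 and Vldlr were higher in AKO_8C, while Asns was not called in that comparison. The other 4 genes called higher there, Atf4, Atf5, Ddit3 and Slc38a2, have no match in their windows, and Nupr1, which has one, had its 3 AKO_8C values below the WT_8C values. The cAMP response element TGACGTCA, its own reverse complement, was found in 1.8% of all windows and in that of 1 gene, Ppp1r15a. The endoplasmic reticulum stress response element, CCAAT and CCACG with 9 bases between them, was in 0.12% of all windows and in none of the 27 genes.

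None of the 4 tested enzymes of amino acid synthesis passed between AKO_8C and WT_8C. Asns, which makes asparagine, had 73.4, 65 and 89.2 FPKM in the AKO_8C libraries, against 78, 47.1 and 53.5 FPKM in the WT_8C libraries. WT_8C replicate 1 lay within the AKO_8C range, and the log2 fold change was 0.36 (adjusted p = 0.329, SE 0.19). At 30 °C Asns had 17.1, 17.6 and 24.9 FPKM in the AKO_30C libraries, against 15.7, 18.3 and 14.6 FPKM in the WT_30C libraries. Cth, the transsulfuration enzyme that releases cysteine, had 16, 17.2 and 13.8 FPKM in the AKO_8C libraries, against 14.5, 6.18 and 10.8 FPKM in the WT_8C libraries, and 2.39, 2.27 and 3.62 FPKM in the AKO_30C libraries, against 2.27, 2.08 and 1.91 FPKM in the WT_30C libraries. Its cold groups overlapped through WT_8C replicate 1, and the log2 fold change at 8 °C was 0.60 (adjusted p = 0.179, SE 0.23). Cbs, the step before it, had 1.02, 2.16 and 3.82 FPKM in the AKO_8C libraries, against 6.99, 3.4 and 2.67 FPKM in the WT_8C libraries, and 0.877, 1.49 and 2.02 FPKM in the AKO_30C libraries, against 1.13, 0.97 and 0.955 FPKM in the WT_30C libraries. WT_8C replicate 1, the library with the epithelial signal, was the highest of the 12, and the log2 fold change at 8 °C was -0.69 (adjusted p = 0.269, SE 0.32). Aldh18a1, which starts proline synthesis, had 6.53, 4.4 and 4.97 FPKM in the AKO_8C libraries, against 4.11, 5.61 and 5.78 FPKM in the WT_8C libraries, and 5.78, 6.7 and 5.54 FPKM in the AKO_30C libraries, against 7.2, 6.59 and 7.77 FPKM in the WT_30C libraries. The genotypes overlapped at both temperatures.

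Of the 6 amino acid transporters tested, Slc38a2 alone passed at 8 °C. This transporter of small neutral amino acids had 57.3, 53.8 and 64.2 FPKM in the AKO_8C libraries, against 31.7, 32.5 and 39 FPKM in the WT_8C libraries. The lowest AKO_8C library was above the highest WT_8C library, at 58.4 ± 5.27 FPKM in AKO_8C and 34.4 ± 3.99 FPKM in WT_8C (SD, n = 3 each), with a log2 fold change of 0.75 (adjusted p = 0.0426, SE 0.17). It passed in 5 of the 12 fits with a library left out; it was lost without any 1 of the 6 cold libraries or WT_30C replicate 1, where the adjusted p reached at most 0.179. Its values at 30 °C were 29.7, 23.7 and 31.2 FPKM in the AKO_30C libraries, against 31.9, 24.7 and 41 FPKM in the WT_30C libraries. Slc3a2, the heavy chain that carries several transporters to the membrane, had 84.4, 112 and 124 FPKM in the AKO_8C libraries, against 77.1, 64.8 and 67 FPKM in the WT_8C libraries. The groups did not overlap, and the log2 fold change was 0.60 (adjusted p = 0.0681, SE 0.15), or 0.76 (adjusted p = 0.0374) without AKO_8C replicate 1. Slc3a2 passed in that 1 of the 12 left-out fits only, with an adjusted p in limma of up to 0.248 in the others. It had 44.3, 49 and 60.7 FPKM in the AKO_30C libraries, against 47, 42.9 and 53.6 FPKM in the WT_30C libraries.

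Slc7a1, for arginine and lysine, had 7.32, 6.12 and 8.82 FPKM in the AKO_8C libraries, against 4.28, 4.74 and 5.09 FPKM in the WT_8C libraries. Those groups were apart too, at a log2 fold change of 0.55 (adjusted p = 0.0618, SE 0.14). Its warm values were 6.4, 5.66 and 5.44 FPKM in the AKO_30C libraries, against 7.75, 5.71 and 7.26 FPKM in the WT_30C libraries. Slc7a5, the large neutral amino acid transporter LAT1, had 7.49, 7.04 and 10.5 FPKM in the AKO_8C libraries, against 5.95, 7.23 and 6.88 FPKM in the WT_8C libraries, and 7.77, 7.24 and 7.68 FPKM in the AKO_30C libraries, against 9.64, 8.02 and 9.8 FPKM in the WT_30C libraries. Its cold groups overlapped, while at 30 °C all AKO values were below the WT values. Slc7a11, the cystine and glutamate exchanger, was near the floor, with 0.617, 0.871 and 0.791 FPKM in the AKO_8C libraries, against 0.701, 0.592 and 0.549 FPKM in the WT_8C libraries, and 1.06, 0.741 and 0.719 FPKM in the AKO_30C libraries, against 1.46, 1.1 and 1.57 FPKM in the WT_30C libraries. It too was lower in every AKO_30C than in every WT_30C library, but it had entered through WT_30C and no test is given. Slc1a5 ranged from 512 to 1128 FPKM. At 8 °C its difference was -0.57 (adjusted p = 0.117, SE 0.18), or -0.79 (adjusted p = 0.0381) without AKO_8C replicate 1. It passed in that 1 of the 12 left-out fits only, with an adjusted p in limma of up to 0.340 in the others.

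The kinases and their substrate did not pass between genotypes. Eif2ak1, the heme-regulated kinase HRI, had 22.5, 22.3 and 25.3 FPKM in the AKO_8C libraries, against 24.7, 21.2 and 22.7 FPKM in the WT_8C libraries, and 19.5, 15.8 and 18.6 FPKM in the AKO_30C libraries, against 19.5, 17.2 and 16.9 FPKM in the WT_30C libraries. The genotypes overlapped at both temperatures. Eif2s1, the alpha subunit of eIF2, had 22.5, 17.1 and 22.6 FPKM in the AKO_8C libraries, against 21.6, 15.3 and 18.9 FPKM in the WT_8C libraries, and 15.6, 12.8 and 13.8 FPKM in the AKO_30C libraries, against 17.1, 12.3 and 17.6 FPKM in the WT_30C libraries, again with overlap. Eif2ak2, the double-stranded RNA sensor PKR, ranged from 3.03 to 6.87 FPKM; all 3 AKO_8C values were below the WT_8C values, with a log2 fold change of -0.56 (adjusted p = 0.125, SE 0.19). Eif2ak4, the amino acid sensor GCN2, ranged from 3.65 to 5.53 FPKM. These are messenger levels and carry no measure of eIF2 alpha phosphorylation.

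**Figure D2:**
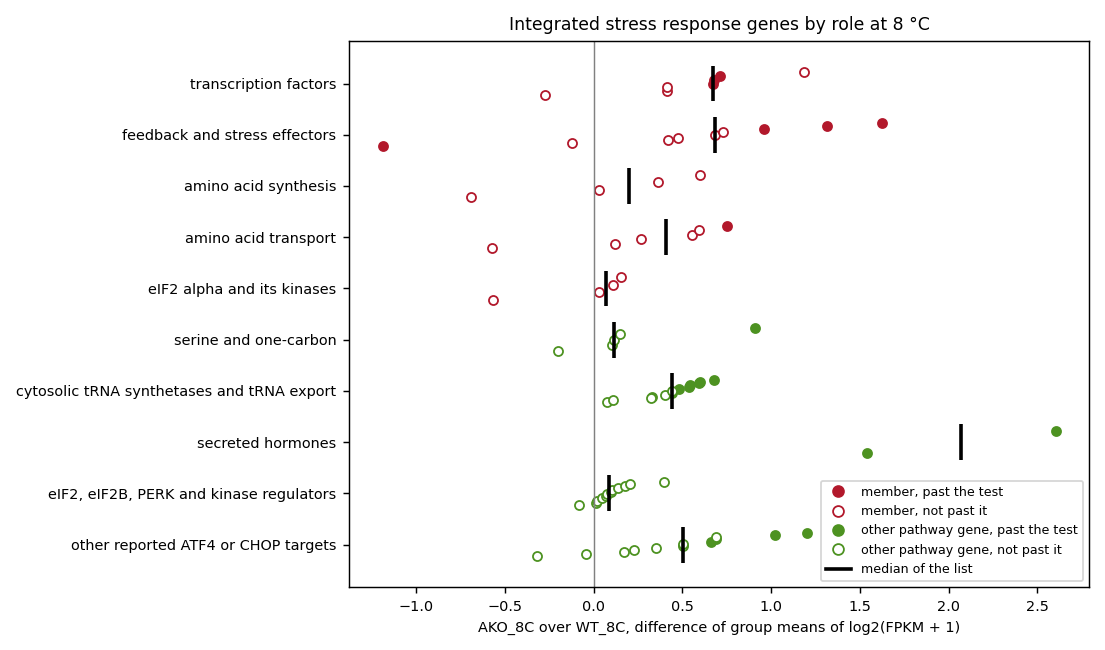
Log2 fold change of AKO_8C over WT_8C for each tested gene, on the log2(FPKM + 1) scale, by role, with the 5 roles above in red and other genes of the pathway in green; filled points passed limma at an adjusted p under 0.05 and bars mark medians. Among the red points Trib3, at 1.63, and Chac1, at 1.31, lie highest and Stc2, at -1.19, lowest, and eIF2 alpha with its kinases has a median of 0.07.

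Without adjustment, 14 of the 30 genes were higher and 3 lower in AKO_8C at p under 0.05, where 11.9% of all genes tested were higher and 7.49% lower. The groups did not overlap for 13 genes that were higher and 3 that were lower, against 15.2% and 8.91% of all genes tested. With 1 library left out in turn, the number called higher ran from 1 to 7. It was 2 without AKO_8C replicate 2, AKO_8C replicate 3, WT_8C replicate 1 or WT_30C replicate 1, and 1, Chac1, without WT_8C replicate 3. The count called lower, 1, was 0 without AKO_8C replicate 2 or 3, WT_8C replicate 1 or 3, or WT_30C replicate 1. The number called higher was also 2, Chac1 and Vldlr, when the libraries were scaled to an equal sum or when only the 6 cold libraries were fitted, and 3, with Atf4, when no gene was filtered out. Within AKO_8C the 7 genes did not peak in a single mouse: replicate 2 was the highest for 4 of them, replicate 3 for 2 and replicate 1 for 1. In WT_8C, replicate 3 was the highest for 5 of the 7.

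The summed level of thermogenic adipocyte markers was also higher in AKO_8C, with no overlap. The 7 markers, Ucp1, Cidea, Dio2, Elovl3, Cox7a1, Cox8b and Ppargc1a, summed to 10246 to 12577 FPKM in AKO_8C and to 7363 to 8981 FPKM in WT_8C. All 7 had positive log2 fold changes, and none was at 0. In limma 2 passed, Dio2 at 1.06 (adjusted p = 0.0333) and Ppargc1a at 0.94 (adjusted p = 0.0380), where 1.46% of all genes tested were called higher. Dio2 averaged 46.1 FPKM and Ppargc1a 11.3 FPKM in AKO_8C. Most of the sum came from Cox8b, Ucp1, Cox7a1 and Cidea, which did not pass. At 30 °C the sums were 671 to 1492 FPKM in AKO_30C and 678 to 966 FPKM in WT_30C. Of the 10 adipocyte markers 1 was called, Lep, the hormone leptin, lower at -2.35 (adjusted p = 0.00577 in limma), while their sums overlapped, at 46480 to 48436 FPKM in AKO_8C and 41811 to 61242 FPKM in WT_8C. The 6 epithelial markers summed to 1.99 to 2.88 FPKM in AKO_8C and 3.55 to 58.7 FPKM in WT_8C, with 0 of the 2 tested called. The 6 skeletal muscle markers summed to 293 to 766 FPKM in AKO_8C and 571 to 1199 FPKM in WT_8C, with 0 called, and the 6 T cell markers to 115 to 152 FPKM in AKO_8C and 157 to 192 FPKM in WT_8C, also with 0 called. The part of these cell types in the differences of Atf4 and its targets was not tested.

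The authors' deposited table for the same contrast lists 13 of the 32 genes. It marks 9 as significantly higher in AKO_8C and 3 as lower, where it marks 2.02% of the 24344 genes as higher and 1.75% as lower. In the authors' deposited table Slc3a2, at a log2 fold change of 0.62, Slc7a1, at 0.66, and Sesn2, at 0.83, are significant besides 6 of the 7 genes above. There Ddit3 is listed with a log2 fold change of 0.72 and a q-value of 0.0789, and is not marked. The authors' deposited table also marks Cbs, at -0.90, and Eif2ak2, at -0.65, as lower along with Stc2, at -1.55.

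At 30 °C the genotypes did not differ past the threshold for any of the 30 genes, where limma called 0.757% of all genes tested higher and 0.0378% lower in AKO_30C. At an unadjusted p under 0.05, Eif4ebp1 was higher (0.26 (adjusted p = 0.333, SE 0.12)), against 6.84% of all genes tested, and the 1 gene lower, against 7.6%, was Slc7a11, which had entered through WT_30C. All 3 AKO_30C values were above all 3 WT_30C values for 3 of the 30 genes (Atf3, Cth and Eif4ebp1) and below them for 3 (Ddit3, Slc7a5 and Slc7a11), where 8.54% and 10.6% of all genes tested were so placed. The median log2 fold change was -0.01 over the 30 genes and -0.04 over all genes tested. For Atf4 the 95% confidence interval ran from -0.51 to 0.08, and for Chac1 from -0.40 to 0.37. The authors' deposited table for this contrast lists 2 of the 32 genes, and marks Atf3 as higher, at 1.07, and Slc7a11 as lower, at -0.71, where it marks 2.54% of all genes as higher and 0.522% as lower. In AKO_30C the 8 macrophage markers summed to 860.0 to 1281 FPKM, against 578 to 697 FPKM in WT_30C, and 2 of the 8 passed. The 7 fibroblast and progenitor markers summed to 719 to 1270.3 FPKM in AKO_30C, against 277 to 384 FPKM in WT_30C, and 3 of the 7 passed. The 4 endothelial markers summed to 117 to 125 FPKM in AKO_30C, against 97.9 to 107 FPKM in WT_30C, and 1 passed. The adipocyte sums, 24224 to 25208 FPKM in AKO_30C against 18816 to 24162 FPKM in WT_30C, were also higher without overlap. The sums of T cell markers, 299 to 344 FPKM in AKO_30C against 378 to 521 FPKM in WT_30C, and of epithelial markers, 2.46 to 3.85 FPKM in AKO_30C against 4.28 to 6.13 FPKM in WT_30C, were lower without overlap, and none of these 3 lists had a gene called. Over all genes, 105 were called between AKO_30C and WT_30C, but 1 when no gene was filtered out, so at most 1 of these marker calls held there. The part of these cell types in the values of the set was not tested.

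**Figure D3:**
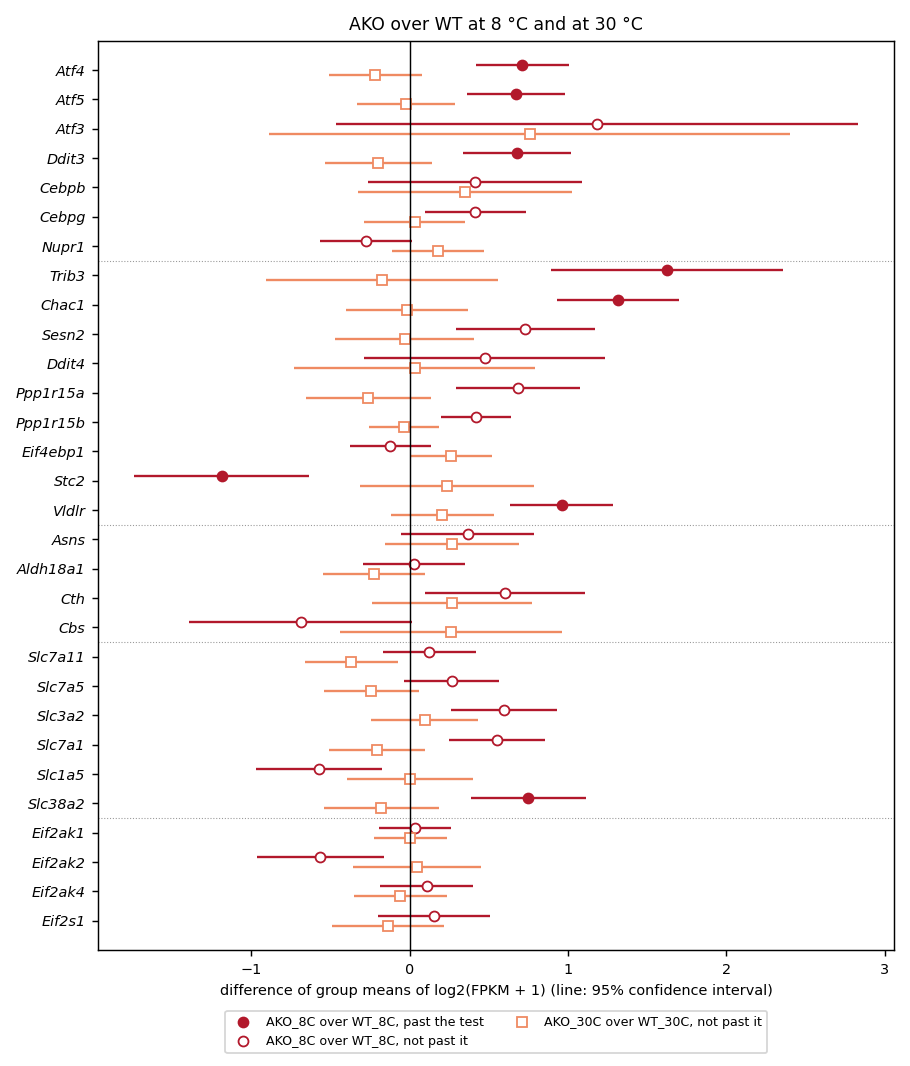
Difference of group means of log2(FPKM + 1), AKO over WT, at 8 °C and at 30 °C, with 95% confidence intervals; filled points passed limma. At 8 °C 7 genes lie above 0 and 1 below it past the test, and at 30 °C none does.

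Whether the genotype difference itself changed with temperature was tested as the interaction, which subtracts the genotype difference in warm mice from the one in cold mice. It passed for 0 of the 30 genes in limma, as for 0.0605% of all genes tested in the positive and 0.053% in the negative direction. At an unadjusted p under 0.05, 14 genes were positive and 5 negative, where 8.99% and 5.88% of all genes tested were. Slc7a11, at 0.49, is among the 14. It had entered through WT_30C, which adds to the interaction, so its place there is no result. The median was 0.44 over the 30 genes and 0.07 over all genes tested. The smallest adjusted p were those of Chac1, at 1.33 (adjusted p = 0.0909, SE 0.25), and Atf4, at 0.93 (adjusted p = 0.106, SE 0.19). Trib3, at 1.80 (adjusted p = 0.158, SE 0.47), had the largest positive value and Stc2, at -1.42 (adjusted p = 0.146, SE 0.36), the largest negative one. Leaving out WT_8C replicate 2, whose Atf3 and Ppp1r15a were the highest of its group, let Ppp1r15a pass, at 1.19 (adjusted p = 0.0277). Ppp1r15a did not pass the interaction in the other left-out fits, where the adjusted p in limma reached 0.343. So the 8 °C and 30 °C results of these genes are not shown to differ.

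In the cold more of the set was higher than lower, in both genotypes. In AKO fat, 18 of the 30 genes were higher and 1 lower in AKO_8C than in AKO_30C, where 26.5% of all genes tested were called higher and 23.1% lower. In WT fat, 12 were higher and 4 lower in WT_8C than in WT_30C, where 24.3% of all genes tested were called higher and 24.7% lower. Of these 4, Slc7a11 had entered through WT_30C, so its fall was set by the filter and is no result. The groups did not overlap for 18 higher and 1 lower genes in AKO (30.5% and 28.1% of all genes tested) and for 14 higher and 4 lower in WT (28.9% and 29.2%). Slc7a11 is again 1 of the 4. The median log2 fold change over the 30 genes was 0.71 in AKO and 0.31 in WT, and over all genes tested 0.00 in AKO and -0.01 in WT. Scaling the libraries to an equal sum shifted the median of all genes to -0.23 in AKO and -0.15 in WT, and then 13 genes were higher and 5 lower in AKO, and 8 higher and 4 lower in WT. Adipocyte markers were called higher in the cold for 5 of 10 in AKO, with 1 lower, and for 9 of 10 in WT, and all 7 thermogenic markers were called higher in each. Elovl3 had passed the filter through the 8 °C libraries alone, and Dio2 through them and WT_30C replicate 3. Their direction in the cold was therefore largely set by the filter. The 6 T cell and 6 skeletal muscle markers were all called lower in each. B cell markers were called lower for 4 of 4 in AKO and 3 of 4 in WT. Endothelial markers were higher for 2 of 4 in AKO and 3 of 4 in WT. Macrophage markers were lower for 2 of 8 in AKO and higher for 3 of 8 in WT. Fibroblast and progenitor markers were lower for 2 of 7 in AKO and higher for 3 of 7 in WT. The part of these cell types in the cold differences was not tested.

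Cold raised 10 genes in both genotypes: Atf5, Cebpb, Trib3, Sesn2, Ppp1r15b, Vldlr, Asns, Cth, Slc3a2 and Eif2ak1. The share of all genes tested that were higher in both was not counted, so whether 10 is many cannot be said. Atf5 rose by 2.62 (adjusted p = 1.19e-07, SE 0.14) in AKO and by 1.93 (adjusted p = 2.81e-06, SE 0.14) in WT, and Vldlr by 2.65 (adjusted p = 1.43e-07, SE 0.15) in AKO and by 1.90 (adjusted p = 4.19e-06, SE 0.15) in WT. For both, every cold library lay above every warm one. Asns rose by similar amounts, 1.89 (adjusted p = 1.02e-05, SE 0.19) in AKO and 1.79 (adjusted p = 2.75e-05, SE 0.19) in WT, and so did Cth, 2.16 (adjusted p = 1.4e-05, SE 0.23) in AKO and 1.83 (adjusted p = 7.64e-05, SE 0.23) in WT. Trib3 was at 2.82 (adjusted p = 3.22e-05, SE 0.34) in AKO and 1.02 (adjusted p = 0.0251, SE 0.34) in WT. The increases of Sesn2, Slc3a2, Ppp1r15b, Cebpb and Eif2ak1 ranged from 0.37 to 1.46 in AKO and from 0.34 to 0.84 in WT. With 1 library left out, Atf5, Sesn2, Ppp1r15b, Vldlr, Asns and Cth stayed past the threshold in every fit of both genotypes. Trib3 was lost in WT without WT_8C replicate 1 or 3 or WT_30C replicate 1 (adjusted p at most 0.0985). Slc3a2 was lost in WT without WT_8C replicate 1, at 0.0526. Cebpb was lost in 3 of 12 fits in AKO, with an adjusted p of up to 0.0950, and in 5 of 12 in WT, with up to 0.136. Eif2ak1 was lost in 2 of 12 in each, with up to 0.0552 in AKO and 0.0713 in WT.

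A further 8 genes passed in AKO fat and not in WT fat. The share of all genes with that pattern was not counted either, so the number itself is not read as a result. Atf4 was higher in AKO_8C than in AKO_30C by 1.07 (adjusted p = 5.26e-05, SE 0.14), and the WT difference was 0.14 (adjusted p = 0.414, SE 0.14). Chac1 stood at 1.14 (adjusted p = 0.000246, SE 0.18) in AKO and -0.20 (adjusted p = 0.375, SE 0.18) in WT. Ppp1r15a was at 1.06 in AKO and 0.11 in WT, Slc38a2 at 1.03 in AKO and 0.10 in WT, and Ddit3 at 0.81 in AKO and -0.06 in WT. For these 5 genes the AKO groups were apart and the WT groups overlapped, and each AKO call held in all 12 left-out fits. Cebpg, at 0.61 in AKO and 0.23 in WT, also held in all 12. Eif2s1, at 0.53 in AKO and 0.23 in WT, was lost without AKO_8C replicate 1 or 3 or AKO_30C replicate 2. Atf3 passed barely in AKO (adjusted p = 0.0491 in limma) with a log2 fold change of 1.95, and was called in 3 of the 12 left-out fits; in WT it was 1.52, with most of it in WT_8C replicate 2. None of these 8 passed the interaction.

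Others passed in WT only or fell. Nupr1, at 0.36 (adjusted p = 0.0393, SE 0.13), and Cbs, at 1.33 (adjusted p = 0.00529, SE 0.32), were higher in WT_8C than in WT_30C; in AKO, Nupr1 was at -0.09 and Cbs at 0.38. Without WT_8C replicate 1 the Cbs difference was 0.99, and Nupr1 was called in 7 of the 12 left-out fits. Slc7a1, at -0.47 (adjusted p = 0.0157, SE 0.14), Aldh18a1, at -0.42 (adjusted p = 0.0337, SE 0.15), and Slc7a5, at -0.40 (adjusted p = 0.0299, SE 0.14), fell in the cold in WT fat, and their WT groups did not overlap. In AKO, Slc7a1 was at 0.29, Aldh18a1 at -0.16 and Slc7a5 at 0.11. None of these 3 held without WT_8C replicate 1, WT_30C replicate 1 or WT_30C replicate 3. Slc7a11 was at -0.56 in WT and -0.06 in AKO. Stc2 fell in the cold in AKO fat, at -1.04 (adjusted p = 0.00506, SE 0.25), and was at 0.39 in WT. Ddit4, Eif4ebp1, Slc1a5, Eif2ak2 and Eif2ak4 passed in neither genotype.

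**Figure D4:**
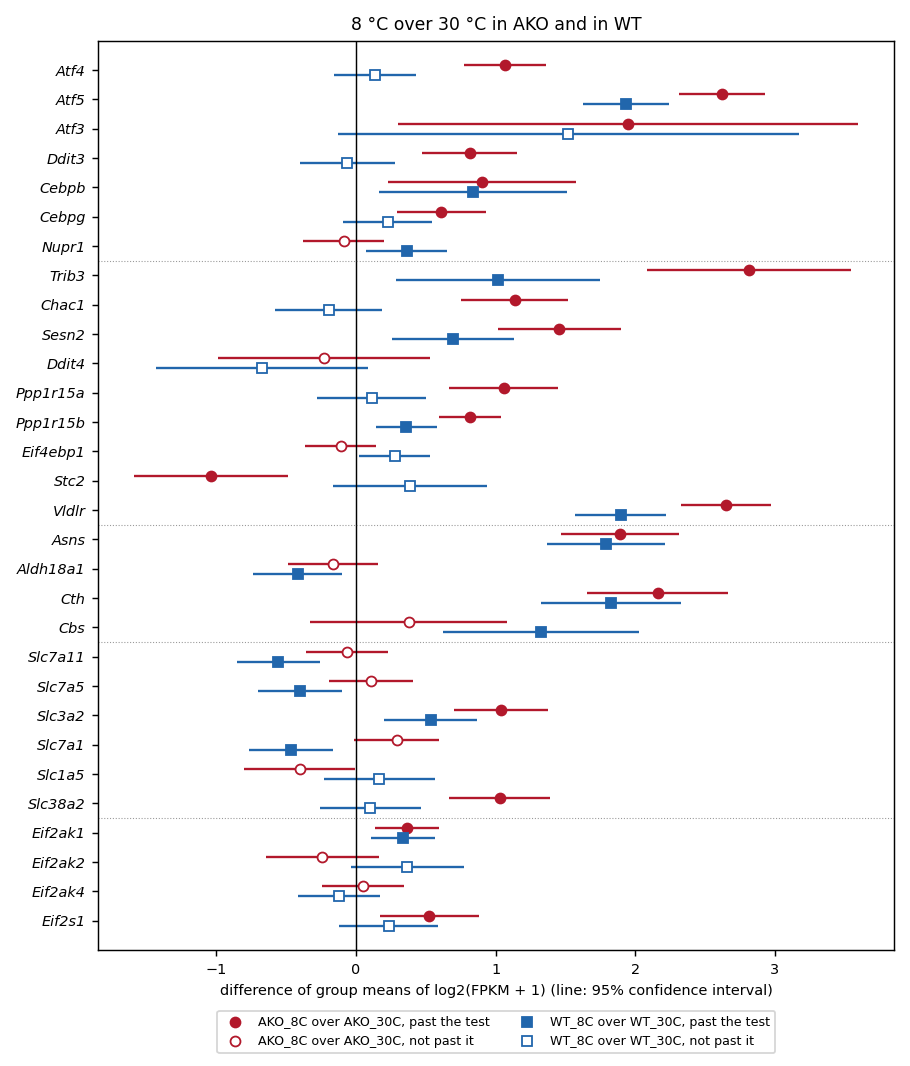
Difference of group means of log2(FPKM + 1), 8 °C over 30 °C, in AKO and in WT, with 95% confidence intervals; filled points passed limma. Atf5 and Vldlr lie farthest to the right in WT, at 1.93 and 1.90, and Atf4 and Chac1 pass in AKO only.

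**Figure D5:**
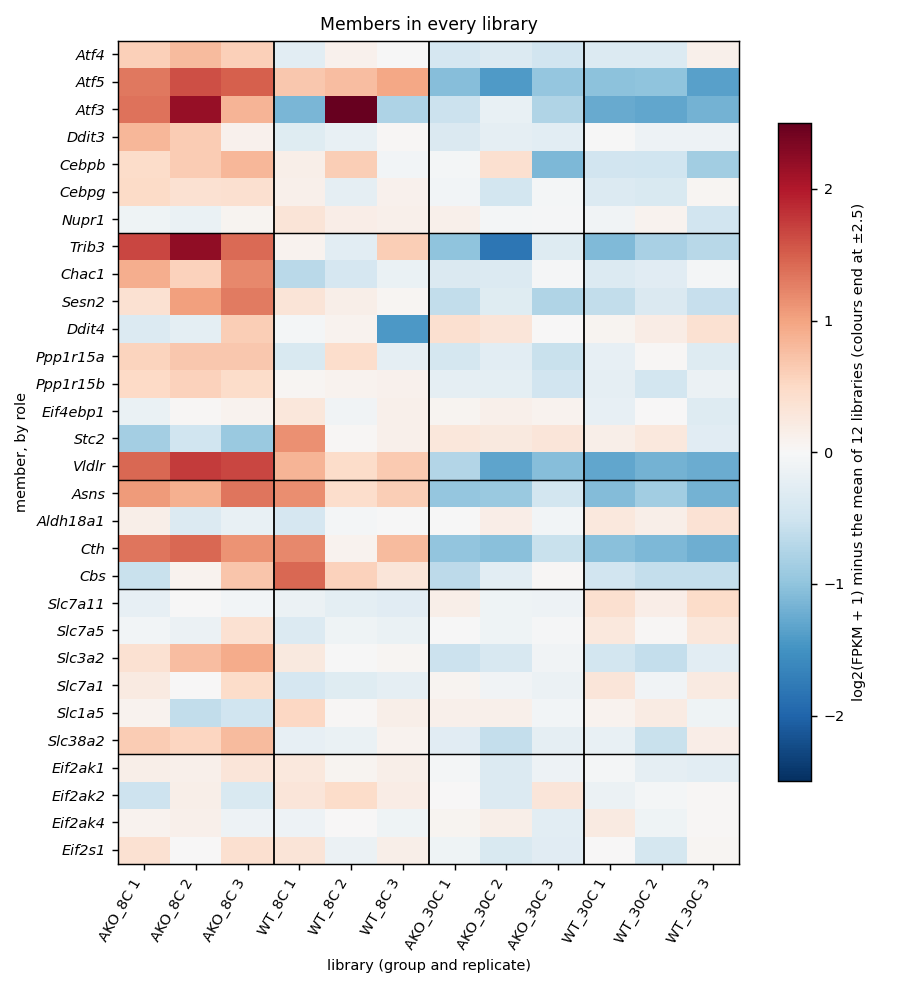
log2(FPKM + 1) of each gene in each library minus the mean of that gene over the 12 libraries, with genes ordered by role and libraries by group. Atf4, Chac1, Ddit3 and Slc38a2 are above their mean in the 3 AKO_8C libraries.

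Of the wider pathway, 46 further genes of which 44 were tested, 15 were higher and 0 lower in AKO_8C than in WT_8C, with a median log2 fold change of 0.33, where 1.46% of all genes tested were called higher and 0.568% lower. These lists too were chosen with earlier results of these data known, so the excess is no independent evidence. Without adjustment 23 were higher and 1 lower at p under 0.05, where 11.9% and 7.49% of all genes tested were. Of the 15, only Eprs and Wars kept the call when the 6 cold libraries were fitted alone, and 10 did with libraries scaled to an equal sum. With 1 library left out 4 to 15 kept it: 4 without AKO_8C replicate 3, 5 without WT_30C replicate 1, 6 without WT_8C replicate 2 or 3, 7 without AKO_8C replicate 1 or WT_8C replicate 1, 8 without AKO_8C replicate 2, and 14 or 15 without one of the others. The genes for charging and export of transfer RNA had 8 of 13 called, with Eprs at 0.68, Gars at 0.60, Wars at 0.59, Nars at 0.54, Yars at 0.54, Xpot at 0.48, Cars at 0.44 and Sars at 0.33. Eprs and Wars passed in all 12 fits that left out a library, Sars in 1, and the other 5 in 5 to 10. Both hormones passed. Fgf21 had 35, 44 and 17.9 FPKM in the AKO_8C libraries, against 4.33, 2.31 and 6.75 FPKM in the WT_8C libraries, apart by a log2 fold change of 2.60 (adjusted p = 0.00472, SE 0.32); it was listed at 0 in 2 of the 3 libraries of each 30 °C group and passed in all 12 left-out fits. Gdf15 had 8.34, 14.4 and 4.76 FPKM in the AKO_8C libraries, against 2, 2.78 and 1.98 FPKM in the WT_8C libraries, apart by 1.54 (adjusted p = 0.0333, SE 0.31), and passed in 6 of 12. Of the 5 tested genes of serine and one-carbon metabolism, Mthfd2, the mitochondrial folate enzyme, passed at 0.91. Of 12 other reported targets of ATF4 or CHOP, 4 passed: Nfil3, a transcriptional repressor, at 1.20, Got1, an aspartate aminotransferase, at 1.02, Herpud1, of endoplasmic reticulum protein degradation, at 0.69, and Ero1l, an oxidase for protein disulfides, at 0.66. Of 12 genes of eIF2, eIF2B, PERK and the kinase regulators, 0 passed in limma and 1 was higher at an unadjusted p under 0.05. These counts lie near the 1.46% and 11.9% of all genes tested that were higher, so they are not read as a result. PERK itself, Eif2ak3, had 8.77, 8.74 and 8.57 FPKM in the AKO_8C libraries, against 7.71, 8.24 and 7.49 FPKM in the WT_8C libraries.

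In the same 44 genes, 0 passed between genotypes at 30 °C, where 0.757% of all genes tested were called higher and 0.0378% lower. Without adjustment 1 was higher and 2 were lower at p under 0.05, where 6.84% and 7.6% of all genes tested were. Cold raised 31 and lowered 2 in AKO, where 26.5% of all genes tested were called higher and 23.1% lower, and raised 21 and lowered 1 in WT, where 24.3% were called higher and 24.7% lower. Fgf21, among those raised in both, had passed the filter through the 8 °C libraries alone. In the interaction 1 of the 44 passed, where 0.0605% of all genes tested passed in the positive and 0.053% in the negative direction. It was Wars, which charges transfer RNA with tryptophan. Its library values were 50.6, 52.3 and 53.2 FPKM in the AKO_8C libraries, against 34, 32.9 and 35.5 FPKM in the WT_8C libraries, and 23.2, 22.2 and 23.5 FPKM in the AKO_30C libraries, against 24.7, 23.5 and 24.9 FPKM in the WT_30C libraries. AKO_8C lay apart from WT_8C, and the 30 °C groups were close to each other. The interaction was 0.68 (adjusted p = 0.0336, SE 0.11), and it passed in none of the 12 fits that left out a library, where the adjusted p ran from 0.0558 to 0.157.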

How the data were processed

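The submitters' processing notes name bcl2fastq, FastQC 0.11.3, TopHat2 2.0.14, Cufflinks 2.2.1 and build mm10; the annotation is not given in the sources used here. The deposited gene table holds FPKM made by the authors: 99.986% of nonzero values are not whole. The authors' deposited comparison tables give a log2 fold change, p-value, q-value and test score. No read counts were used, so depth is unknown.

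Genes with 1 FPKM or more in at least 3 libraries were tested (13215 of 24344). Left out were 2 genes with 0 FPKM in some libraries but 1000 FPKM or more elsewhere. Tests used limma 3.58.1 in R 4.3.3 on log2(FPKM + 1), with 4 group means over 12 libraries, a variance trend, two-sided tests and Benjamini-Hochberg adjustment, and were checked on simulated data. Figures used Python 3.11.15 with matplotlib 3.10.9. Positions are GRCm38. All 32 members are named; those past an adjusted p of 0.05 in any comparison are given by library, and other pathway genes are named where they passed at 8 °C or in the interaction. Members and lists were chosen with earlier results of these data known. Alternatives were other filters, pseudocounts, variance settings and scalings, fits restricted to the groups compared, a replicate block, and each library left out. The labels give 3 mice per group. Each p-value sets a difference against a spread within groups that is pooled over the 12 mice and drawn toward the trend over all genes.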

Additional observations from a re-analysis of the deposited data

Results flagged for a closer look

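Wars, which charges transfer RNA with tryptophan, was the only one of the 74 tested genes of the integrated stress response whose genotype difference changed with temperature past the threshold. Of all genes tested, 0.0605% passed in the positive and 0.053% in the negative direction. In AKO relative to WT, Wars stood at 0.59 (SE 0.07) on the log2 scale at 8 °C and at -0.08 (SE 0.07) at 30 °C. The difference between these values, tested as an interaction in limma, was 0.68 (SE 0.11, adjusted p = 0.0336). It missed the threshold in each of the 12 fits that left out a library and in 5 of the 10 other alternatives, with an adjusted p of up to 0.157 and 0.0887.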

How the results depend on the processing

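Of 2547 recomputed values of single genes, 2269 kept their direction and their side of the threshold, 241 lost the call, 23 gained it and 14 changed sign. Members higher in AKO_8C than in WT_8C, 7 as reported, numbered 3 with no filter on low values, 2 with libraries scaled to an equal sum and 2 in a fit of the cold libraries alone; members lower, 1 as reported, numbered 0 with no filter and 0 with the cold libraries alone. With 1 library left out they ranged from 1 to 7 and from 0 to 1. Members lower in AKO_8C than in AKO_30C, 1 as reported, numbered 2 with upper quartile scaling, 5 with equal sum scaling and 1 to 2 with a library left out. Members lower in WT_8C than in WT_30C, 4 as reported, ranged from 1 to 4 with a library left out, and members higher in the interaction from 0 to 1. The other counts of members stayed within 1.5 times of the reported ones, and the cause of each change was not tested.

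Signs changed for values near 0 that did not pass. Chac1 in AKO_30C over WT_30C was 0.021 with upper quartile scaling, 0.025 with equal sum scaling and between -0.129 and 0.0723 with a library left out. With equal sum scaling, WT_8C over WT_30C was -0.0168 for Atf4, -0.034 for Ppp1r15a and -0.050 for Slc38a2, and AKO_8C over AKO_30C was -0.14 for Slc7a5. With a library left out, WT_8C over WT_30C ran from -0.16 to 0.013 for Ddit3, from -0.14 to 0.28 for Ppp1r15a and from -0.076 to 0.28 for Slc38a2, and AKO_8C over AKO_30C from -0.11 to 0.022 for Slc7a11 and from -0.052 to 0.20 for Slc7a5.

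Replicate numbers were not treated as pairs: deviations from the group means of same-numbered libraries correlated between -0.11 and 0.20, above 0.1 in 8 of 18 cases, and those of other numbers between -0.26 and 0.17, above 0.1 in 4 of 36. All 3 were above 0.1 only for WT_8C with AKO_30C, at 0.205, 0.148 and 0.116. These groups are not compared with each other, but both enter the interaction. The cause of these correlations was not tested. With the replicate block, 8 members were higher and 1 lower in AKO_8C (Ddit3 was not called, and Ppp1r15a and Slc7a1 were), 18 higher and 2 lower in AKO in the cold, 13 higher and 4 lower in WT in the cold, and 1, Chac1, passed in the interaction. Over all genes, calls between AKO_8C and WT_8C numbered 268 as reported, 419 with the block, 172 with no filter, 158 with equal sum scaling and 35 with the cold libraries alone; between AKO_30C and WT_30C 105, against 1 with the block or with no filter, 49 with a robust variance, 56 with median ratio scaling and 69 with no variance trend. Without read counts, no counting error could be set beside the low values, such as those of Slc7a11 and Cbs.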
